A study of Homo sapiens with 9 samples.

Results

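Collagens are the main structural proteins of the extracellular matrix, and each is built from 3 chains wound around one another. Each kind of chain has its own gene, and the chains of a trimer can come from the same gene. The collagen genes were taken as every gene whose symbol reads COL, a number, A and a number and whose probe set carried that symbol alone. The rule gave 43 genes, measured by 45 of the 19460 probe sets with exactly 1 symbol, out of 18417 genes in all. A class list of human collagens held 44 genes, and COL17A1 was not analysed here. A probe set shared by COL1A2 and PNLIP was left out, and COL1A2 was read from a probe set of its own.

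The study asked which genes depend on ARID1B, a subunit of the SWI/SNF chromatin remodeling complex, during oncogene-induced senescence (OIS), the lasting growth arrest that follows activation of an oncogene. The cells were IMR90 ER:RAS, human lung fibroblasts (spelled IRM90 in the labels) that carry oncogenic RAS fused to an estrogen receptor domain and switched on by 4-hydroxytamoxifen (4OHT). RNA was hybridised to 9 Affymetrix whole-transcript arrays, 3 in each of 3 groups: empty vector without 4OHT (vector-4OHT, the non-senescent cells), empty vector with 4OHT (vector+4OHT, the senescent cells), and a short hairpin RNA against ARID1B with 4OHT (shARID1B+4OHT, the knockdown cells). All groups share the IMR90 ER:RAS background, 7 days of growth and a day 6 time point, and 4OHT was given at 100 nM. No group held the hairpin without 4OHT, an unrelated hairpin, or 4OHT without ER:RAS, and the labels do not name the hairpin. The article reports weaker OIS in these cells after ARID1B knockdown, with more proliferation and fewer cells stained for a senescence marker enzyme. The vector+4OHT and shARID1B+4OHT cells thus differ in both ARID1B and the extent of senescence, and the part of each was not tested. The comparison of vector+4OHT with vector-4OHT is called senescence here, that of shARID1B+4OHT with vector+4OHT is called knockdown, and shARID1B+4OHT was also set against vector-4OHT. All levels are log2 array signals, so a difference of 1 is a doubling. Differences were tested with limma over all 18417 genes, with 2-sided p-values adjusted by Benjamini-Hochberg within each comparison, and a gene was called higher or lower where its adjusted p was under 0.05. The article calls the replicates biological, and the labels do not say how they were separated. Each p-value sets a difference between group means against the spread between arrays within groups. That spread was pooled over the 3 groups and moderated by that of all genes, and the number of arrays limits the precision.

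ARID1B itself fell in the knockdown. Its level was 8.93, 8.85 and 8.94 in vector-4OHT, 8.63, 8.96 and 8.77 in vector+4OHT, and 8.07, 7.96 and 8.13 in shARID1B+4OHT. The 3 hairpin arrays lay below the other 6, and the level was 39.9% lower than in vector+4OHT (log2 fold change -0.73, SE 0.0808, limma adjusted p = 0.000179). Fibroblast markers were above the median of all probe set values (6.75) in every group, whereas all 6 leukocyte markers measured and 5 of 7 endothelial markers were below it. The smooth muscle list had only 1 of 5 below it in each group, and the epithelial list 2 or 3 of 6. Fibroblast markers themselves moved with OIS. In vector+4OHT 7 of 8 were called lower, among them decorin (DCN, log2 fold change -1.60, limma adjusted p = 2.24e-08). Of all genes, 14.9% were called higher and 17.6% lower in senescence, and 9.63% and 6.09% in the knockdown. The summed linear signal of the 8 fibroblast markers was 25280 to 26730 in vector-4OHT, 19880 to 20680 in vector+4OHT and 21610 to 21710 in shARID1B+4OHT. In the knockdown 3 of the 8 were called higher and 0 lower, DCN among them (0.65, limma adjusted p = 0.000104). Of 5 smooth muscle markers, 1 was called higher and 2 lower in senescence, and 0 higher and 2 lower in the knockdown. Their log2 fold changes ran from -0.97 to 0.88 in senescence and from -0.40 to 0.09 in the knockdown. Actin ACTA2 fell by 0.46 and then 0.16 (limma adjusted p = 2.47e-05 and 0.0422). The summed signal of the 5 was 10180 to 10480, 7693 to 8050 and 6960 to 7205 in the same order of groups. A linear sum follows its brightest genes, and this one does not speak for the marker called higher. Of 6 epithelial markers, 2 were called lower in senescence and 2 higher in the knockdown. That is 33.3% called in each, beside 32.6% and 15.7% of all genes. KRT19 was at -1.10 and 0.86 (limma adjusted p = 1.22e-05 and 0.000321), and the epithelial sums were 1504 to 1614, 1293 to 1481 and 1388 to 1479. The 7 endothelial markers held 1 call higher and 1 lower in senescence, and the same numbers in the knockdown. The part of these shifts in the collagen results was not tested. In bulk RNA, fewer cells that use a gene and less RNA from it per cell cannot be told apart.

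As background, fibrillar collagens (types I, II, III, V, XI, XXIV and XXVII) form the tensile fibers of connective tissue, and types I and III are the bulk of what a lung fibroblast secretes. Type IV chains form the sheet-like network of basement membranes. The FACIT collagens sit on the surface of fibrils, the multiplexins XV and XVIII lie at the border between basement membrane and stroma, type VI forms beaded filaments around cells, types VIII and X are short-chain network formers, type VII makes the anchoring fibrils of skin, and types XIII, XVII, XXIII and XXV span the cell membrane.

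In OIS, 7 collagen genes rose, 8 fell and 28 were not called. Those that rose were the type IV chains COL4A1, COL4A2 and COL4A5, the short-chain COL10A1, the anchoring fibril COL7A1, the membrane collagen COL13A1 and the fibrillar but dim COL24A1. Those that fell were the fibrillar chains COL1A1, COL1A2, COL3A1, COL5A2 and COL11A1, the FACIT collagens COL12A1 and COL14A1 and the multiplexin COL15A1. Differences between classes were not tested, and most classes held genes that were not called. In the knockdown cells COL10A1, COL14A1 and COL15A1 lay between the senescent and the non-senescent level, and COL5A2 and COL7A1 overlapped with non-senescent cells. COL4A1, COL4A2 and COL1A2 were not called in the knockdown, and COL11A1 was lower still. Senescence and knockdown share the vector+4OHT arrays, so their values are set side by side and no relation between them is drawn.

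In numbers, 15 of 43 collagen genes (34.9%) were called in senescence, 7 higher and 8 lower, beside 32.6% of all genes (14.9% higher and 17.6% lower). In the knockdown, 8 collagen genes (18.6%) were called, 4 in each direction, beside 15.7% of all genes (9.63% higher and 6.09% lower). Between shARID1B+4OHT and vector-4OHT, 17 (39.5%) were called, 8 higher and 9 lower, beside 31.5% of all genes (15.6% higher and 15.9% lower). With array medians subtracted, the collagen calls were 9 higher and 6 lower in senescence, 3 and 3 in the knockdown, and 8 and 6 between shARID1B+4OHT and vector-4OHT. Those of all genes were 3026 and 2658, 1799 and 760, and 3452 and 2087 in the same order. The shares of collagen genes called are near the background, so the family was not called more often than other genes by a margin to be read. The median log2 fold change over the 43 genes was -0.0221 in senescence, -0.061 in the knockdown and -0.0472 between shARID1B+4OHT and vector-4OHT, beside -0.012, -0.0169 and -0.0342 over all genes. Of the 43, 30 had every group mean at or above the median of all values, COL8A1 crossed it, and 12 were below it in every group, where array signal carries little information on transcript level. Among the 30 brighter genes 14 (46.7%) were called in senescence and 8 (26.7%) in the knockdown, beside 44.5% and 22% of all genes as bright.

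**Figure D1:**
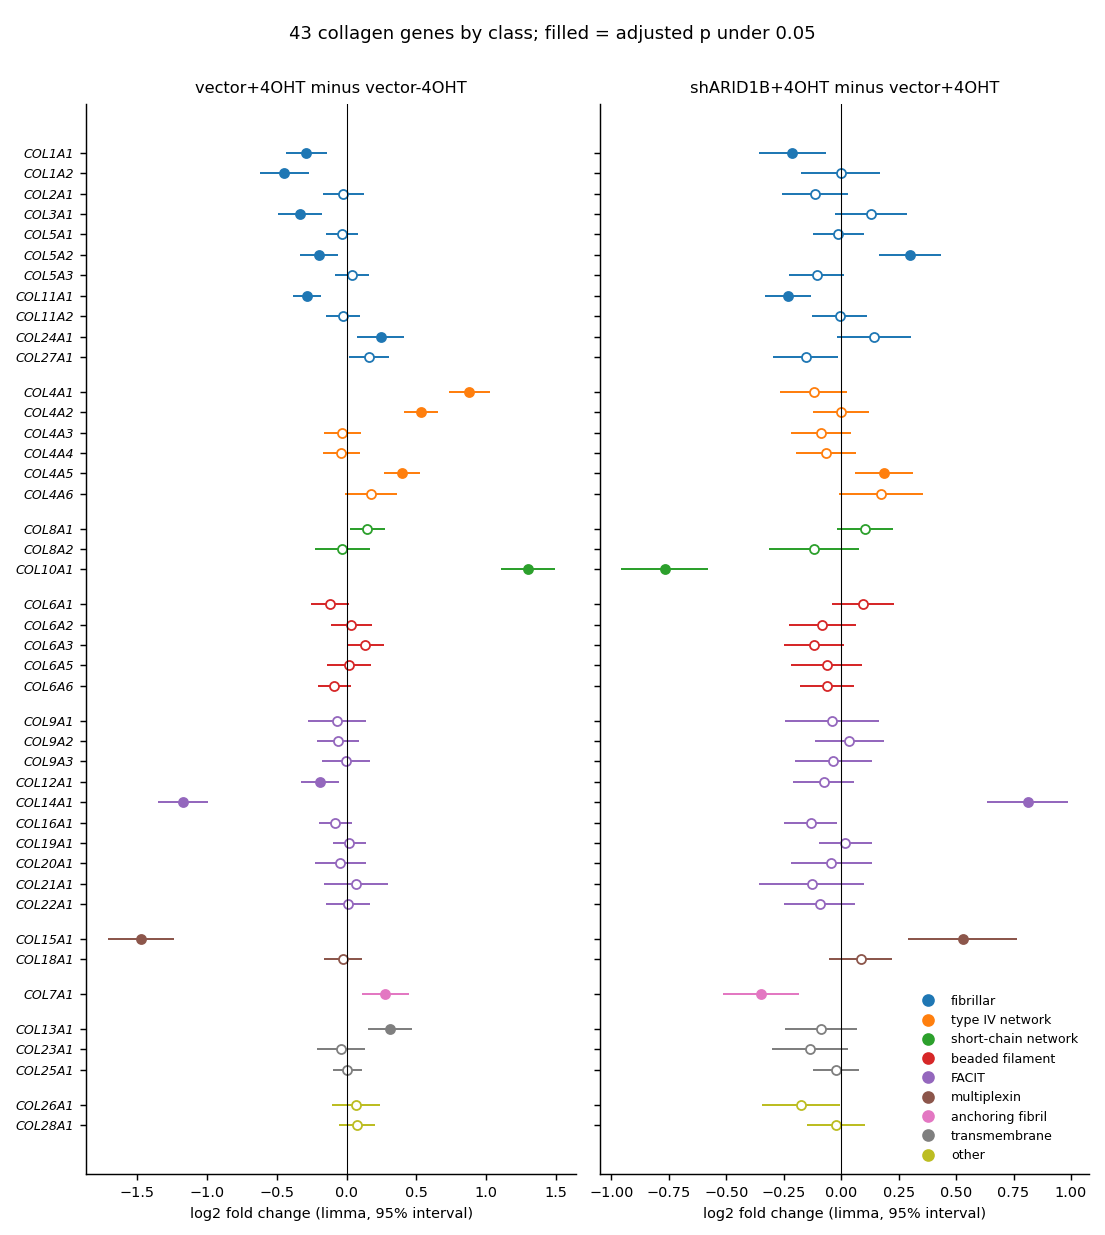
Log2 fold change (x axis) of the 43 collagen genes (y axis, grouped by class) in senescence on the left and in the knockdown on the right, with 95% intervals from limma and filled points for adjusted p under 0.05. The largest rise in senescence is COL10A1 (1.30) and the largest fall COL15A1 (-1.47), and in the knockdown COL14A1 (0.81) and COL10A1 (-0.77) lie farthest from 0.

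Among the 11 fibrillar genes, 5 were called lower and 1 higher in senescence, beside 17.6% and 14.9% of all genes. In the knockdown 2 were called lower and 1 higher, beside 6.09% and 9.63%. COL1A1 encodes the α1 chain of type I collagen, of which the trimer holds 2 copies. Its level was 12.36, 12.35 and 12.56 in vector-4OHT, 12.13, 12.14 and 12.13 in vector+4OHT, and 11.85, 11.98 and 11.93 in shARID1B+4OHT. The 3 groups do not overlap, and the level went down in steps from non-senescent to senescent to knockdown cells. COL1A1 was 18.1% lower in OIS (log2 fold change -0.29, SE 0.064, limma adjusted p = 0.00487) and a further 13.7% lower in the knockdown (-0.21, limma adjusted p = 0.0469). That second step is at the edge of the threshold: without vector-4OHT replicate 1, or without any single vector+4OHT or shARID1B+4OHT array, the adjusted p was 0.0529 to 0.153 and the log2 fold change -0.24 to -0.18.

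COL1A2 encodes the α2 chain, the partner of COL1A1 in the type I trimer. Its level was 12.28, 12.21 and 12.50 in vector-4OHT, 11.82, 11.91 and 11.93 in vector+4OHT, and 11.80, 11.93 and 11.91 in shARID1B+4OHT. All 6 arrays with 4OHT lay below the 3 without it, and the arrays with and without the hairpin overlapped. COL1A2 was 26.6% lower in OIS (log2 fold change -0.45, SE 0.0753, limma adjusted p = 0.000826), and in the knockdown the difference was -0.0023 with a 95% interval of -0.17 to 0.16. Whether the knockdown differs between COL1A1 and COL1A2 was not tested.

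COL3A1, the single chain of type III collagen, read 10.47, 10.43 and 10.66 in vector-4OHT, 10.11, 10.26 and 10.18 in vector+4OHT, and 10.27, 10.33 and 10.34 in shARID1B+4OHT. The senescent arrays were the lowest, and the knockdown arrays lay between the other groups with no overlap. COL3A1 was 20.8% lower in OIS (log2 fold change -0.34, SE 0.068, limma adjusted p = 0.00267). The knockdown difference of 0.13 was not called (95% interval -0.02 to 0.28, adjusted p = 0.249).

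COL5A2, a chain of type V collagen, which nucleates type I fibrils, had the opposite sign in the 2 comparisons. Its level was 8.65, 8.65 and 8.73 in vector-4OHT, 8.37, 8.51 and 8.55 in vector+4OHT, and 8.72, 8.79 and 8.82 in shARID1B+4OHT. The senescent arrays were below both other groups, which overlapped each other. The log2 fold change was -0.20 in senescence (SE 0.0588, limma adjusted p = 0.0254) and 0.30 in the knockdown (limma adjusted p = 0.00604), and shARID1B+4OHT differed from vector-4OHT by 0.10 (95% interval -0.03 to 0.24). Without vector-4OHT replicate 3 or vector+4OHT replicate 1 the fall in OIS missed the threshold, at adjusted p of 0.0691 to 0.0869. The other type V chains did not move with it: COL5A1 differed by -0.03 in senescence and -0.01 in the knockdown, COL5A3 by 0.04 and -0.11, none of them called.

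COL11A1, a minor fibrillar chain that is copolymerised into thin fibrils, went down at each step with hardly any spread. It read 7.43, 7.42 and 7.46 in vector-4OHT, 7.15, 7.15 and 7.16 in vector+4OHT, and 6.93, 6.92 and 6.92 in shARID1B+4OHT. The groups do not overlap, and the distance between groups was many times the distance within them. The log2 fold change was -0.28 in senescence (SE 0.0428, limma adjusted p = 0.00039) and -0.23 in the knockdown (limma adjusted p = 0.00439), so that shARID1B+4OHT cells were 30.0% below non-senescent cells. The 250 bases before its start site, from RefSeq on GRCh38.p14, lie at chr1:103108523-103108772 on the minus strand. They are shown because COL11A1 is a fibrillar chain that fell in every comparison and has a single start in the table. COL1A1 was also called lower in every comparison, but no promoter window was at hand for it. Capitals mark CCAAT and GGGCGG, the boxes known to be bound by NF-Y and SP1, on either strand.
COL11A1: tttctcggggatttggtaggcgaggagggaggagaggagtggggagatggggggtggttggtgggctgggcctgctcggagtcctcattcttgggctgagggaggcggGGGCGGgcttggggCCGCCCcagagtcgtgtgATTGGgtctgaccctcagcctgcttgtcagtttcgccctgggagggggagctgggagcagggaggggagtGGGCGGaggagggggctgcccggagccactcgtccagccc

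This window holds 1 CCAAT and 3 GGGCGG matches, none of them overlapping, and 68.8% of its bases are G or C. As a measure of how common such matches are, CCAAT was found in 32% and GGGCGG in 42.6% of all 35097 RefSeq promoter windows of 250 bases, searched on both strands. Of the 43 collagen windows (31 genes, of which 8 have several starts), 11 held CCAAT and 24 held GGGCGG, or 25.6% and 55.8%. TATAAA was found in 7 collagen windows (16.3%, beside 10.7% of all) and TGANTCA in 1 (2.33%, beside 6.57%). TGANTCA allows any middle base and so is wider than the core read by AP-1 factors, which has C or G there. These are matches of letters only.

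COL24A1 was the fibrillar gene called higher in senescence (log2 fold change 0.24, limma adjusted p = 0.0221), but its group means of 6.14, 6.38 and 6.52 were below the median of all values. Its call was lost without vector-4OHT replicate 1 or 3 or vector+4OHT replicate 1, at adjusted p of 0.0568 to 0.0854. In the knockdown COL24A1 differed by 0.14 (adjusted p = 0.227, or 0.0482 without shARID1B+4OHT replicate 1). The other fibrillar genes, COL2A1, COL5A1, COL5A3, COL11A2 and COL27A1, were not called in senescence or the knockdown. Their log2 fold changes in senescence ran from -0.03 for COL5A1 to 0.16 for COL27A1 (adjusted p = 0.0686). COL11A2 entered this range by its brightest probe set alone. Its other probe sets, identical to each other in value, read lower in most arrays with 4OHT. They gave 6.66 to 6.89 in vector-4OHT, 6.36 to 6.77 in vector+4OHT and 6.56 to 6.70 in shARID1B+4OHT. For COL27A1 the call changed with 1 array, since without vector-4OHT replicate 2 the adjusted p was 0.0371.

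**Figure D2:**
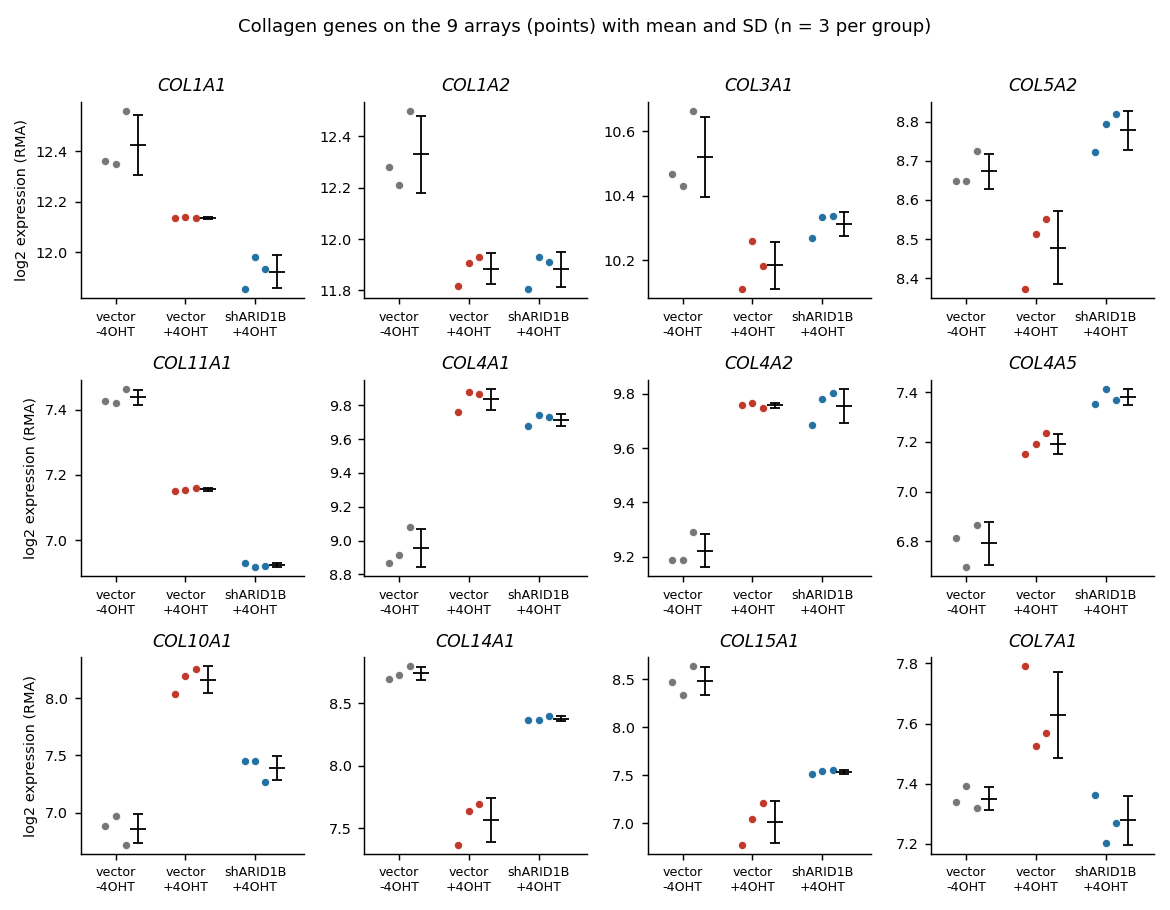
Log2 array signal (y axis) of 12 collagen genes in each of the 9 arrays, by group (x axis), with points for arrays and bars for mean ± SD of 3 arrays. COL4A1 and COL4A2 are up in both groups with 4OHT, COL10A1 is highest and COL14A1 and COL15A1 lowest in vector+4OHT, and COL11A1 steps down with the groups apart.

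Of the 6 type IV genes, 3 (COL4A1, COL4A2 and COL4A5) were called higher and 0 lower in senescence, beside 14.9% and 17.6% of all genes, and COL4A3, COL4A4 and COL4A6 were not called. COL4A1 and COL4A2 encode the 2 chains of the ordinary basement membrane trimer. COL4A1 read 8.87, 8.92 and 9.08 in vector-4OHT, 9.76, 9.88 and 9.87 in vector+4OHT, and 9.67, 9.74 and 9.73 in shARID1B+4OHT. COL4A2 read 9.19, 9.19 and 9.29 in vector-4OHT, 9.76, 9.76 and 9.75 in vector+4OHT, and 9.68, 9.78 and 9.80 in shARID1B+4OHT. For both genes all 6 arrays with 4OHT lay above the 3 without it. COL4A1 rose 1.84-fold in OIS (log2 fold change 0.88, SE 0.0634, limma adjusted p = 1.57e-06) and COL4A2 rose 1.45-fold (0.53, SE 0.0523, limma adjusted p = 1.62e-05).

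In the knockdown neither was called: COL4A1 differed by -0.12 (95% interval -0.26 to 0.02) and COL4A2 by -0.0009 (95% interval -0.12 to 0.11). The arrays with and without the hairpin overlapped for COL4A2, and for COL4A1 the 3 hairpin arrays lay just below the 3 senescent ones. Against vector-4OHT, shARID1B+4OHT cells were still 1.69-fold higher for COL4A1 (limma adjusted p = 4.8e-06) and 1.45-fold higher for COL4A2 (limma adjusted p = 1.67e-05).

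COL4A1 and COL4A2 stand head to head on chromosome 13 and are transcribed away from each other. RefSeq puts 126 bases between their start sites, chr13:110307158-110307283 on GRCh38.p14. The stretch is given on the plus strand, with COL4A1 leaving to the left and COL4A2 to the right, because both genes that rose are read from it. Capitals again mark CCAAT and GGGCGG on either strand.
COL4A1-COL4A2: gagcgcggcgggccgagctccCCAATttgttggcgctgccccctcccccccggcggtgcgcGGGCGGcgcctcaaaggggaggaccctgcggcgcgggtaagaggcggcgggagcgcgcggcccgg

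It holds 1 CCAAT and 1 GGGCGG, with no TATAAA and no TGANTCA, and 80.2% of its bases are G or C. Over windows of 126 bases, 21.1% of all promoters held CCAAT and 34.6% held GGGCGG.

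COL4A5, whose chain is part of the basement membrane network of kidney and lung, rose in OIS as well. It read 6.81, 6.70 and 6.87 in vector-4OHT, 7.15, 7.19 and 7.23 in vector+4OHT, and 7.35, 7.41 and 7.37 in shARID1B+4OHT. The groups do not overlap and climb from the non-senescent to the knockdown cells. The log2 fold change was 0.40 in senescence (SE 0.0554, limma adjusted p = 0.000206) and 0.19 in the knockdown (limma adjusted p = 0.0447). The knockdown call was lost without vector-4OHT replicate 1 or any single vector+4OHT or shARID1B+4OHT array, at adjusted p of 0.0523 to 0.155 and a log2 fold change of 0.17 to 0.21. The table gives COL4A5 1 start, with the 250 bases before it at chrX:108439588-108439837, plus strand. It is shown as the start of the third type IV gene that was called in senescence, and it overlaps the window of 1 of the 2 starts of COL4A6, which is read the other way.
COL4A5: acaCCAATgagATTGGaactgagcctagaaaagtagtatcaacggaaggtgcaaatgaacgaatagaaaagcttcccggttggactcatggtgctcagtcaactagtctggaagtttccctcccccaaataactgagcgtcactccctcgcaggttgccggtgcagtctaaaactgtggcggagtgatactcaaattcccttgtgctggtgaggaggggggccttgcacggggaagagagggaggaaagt

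Here 2 CCAAT matches stand 3 bases apart on opposite strands, no GGGCGG was found, and 51.2% of the bases are G or C. COL4A6 is the neighbour of COL4A5, with 379 bases between the nearest starts, and was dim, with group means of 6.10, 6.27 and 6.44. Its log2 fold change was 0.17 in senescence (adjusted p = 0.138) and 0.17 in the knockdown (adjusted p = 0.196), and it was called only between shARID1B+4OHT and vector-4OHT, at 0.35 (limma adjusted p = 0.0071). COL4A3 and COL4A4, the third head-to-head pair, with 418 bases between starts, were also below the median of all values and were not called in any comparison, with differences of -0.03 and -0.04 in senescence.

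COL10A1 had the largest rise in OIS of the 43 genes. Type X collagen is known from hypertrophic cartilage. COL10A1 read 6.89, 6.98 and 6.72 in vector-4OHT, 8.03, 8.19 and 8.26 in vector+4OHT, and 7.45, 7.45 and 7.27 in shARID1B+4OHT. The groups do not overlap, and the knockdown arrays lay between the other groups. It rose 2.46-fold in OIS (log2 fold change 1.30, SE 0.0837, limma adjusted p = 6.58e-07) and was 41.3% lower in the knockdown than in senescent cells (-0.77, limma adjusted p = 0.000169). It remained 1.45-fold above non-senescent cells in shARID1B+4OHT (limma adjusted p = 0.000555). Log2 fold changes of 0.5 or more in either direction with a call were found for 10.8% of all genes in senescence and 3.11% in the knockdown.

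Of 6 chondrocyte markers, 4 were below the median of all values in vector-4OHT and 5 in vector+4OHT, aggrecan (ACAN) among them at group means of 6.02, 5.90 and 5.88. The summed linear signal of the 6 was 1328 to 1397 in vector-4OHT, 1523 to 1647 in vector+4OHT and 1762 to 1807 in shARID1B+4OHT. Most of that sum is the signal of SOX9, so it does not speak for the other 5, and its part in the COL10A1 result was not tested. SOX9, the chondrocyte transcription factor, rose by 0.35 in senescence (limma adjusted p = 0.000435) and 0.20 in the knockdown (limma adjusted p = 0.0321), whereas MATN3, a cartilage matrix protein, fell by 0.52 in senescence (limma adjusted p = 0.000108) and rose by 0.42 in the knockdown (limma adjusted p = 0.0017).

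RefSeq gives COL10A1 3 starts, and the array cannot say which is used. The window of the middle start, chr6:116158773-116159022 on the minus strand of GRCh38.p14, is shown because it was the 1 collagen window with TGANTCA, and was chosen for that after the matches were seen. Capitals mark the same 2 boxes where present, and matches to TATAAA and to TGANTCA.
COL10A1: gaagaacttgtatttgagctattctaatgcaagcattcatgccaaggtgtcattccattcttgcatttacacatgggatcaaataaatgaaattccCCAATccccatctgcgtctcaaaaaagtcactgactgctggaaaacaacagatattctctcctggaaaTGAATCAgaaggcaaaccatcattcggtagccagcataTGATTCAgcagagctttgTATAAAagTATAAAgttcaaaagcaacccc

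It holds 2 TGANTCA, 2 TATAAA and 1 CCAAT matches, and 39.2% of its bases are G or C. The 2 TGANTCA matches read TGAATCA and TGATTCA, so neither has the middle C or G of the AP-1 core. The other COL10A1 windows hold no TGANTCA match, and no use of the motif was measured here. The type VIII chains, also short-chain network formers made by endothelial and smooth muscle cells, moved less. COL8A1 differed by 0.15 in senescence, short of the threshold (adjusted p = 0.0511), and was called between shARID1B+4OHT and vector-4OHT (0.25, limma adjusted p = 0.00339). Without vector-4OHT replicate 3 or vector+4OHT replicate 1 its adjusted p in senescence was 0.0371 to 0.0476. COL8A2 was not called.

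Of the 10 FACIT genes, 2 (20%) were called lower in senescence, beside 17.6% of all genes. In the knockdown 1 (10%) was called higher, beside 9.63%. COL14A1 was called in both comparisons. Type XIV collagen binds the surface of type I fibrils and limits their width. COL14A1 read 8.69, 8.73 and 8.79 in vector-4OHT, 7.37, 7.64 and 7.70 in vector+4OHT, and 8.37, 8.37 and 8.40 in shARID1B+4OHT. The senescent arrays were lowest by a wide gap, and the knockdown arrays lay close under the non-senescent ones. COL14A1 was 55.6% lower in OIS (log2 fold change -1.17, SE 0.0778, limma adjusted p = 8.4e-07) and 1.75-fold higher in the knockdown than in senescent cells (0.81, limma adjusted p = 7.98e-05). It was still 22.2% below non-senescent cells in shARID1B+4OHT (limma adjusted p = 0.00431).

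COL12A1, the other FACIT gene called, encodes a collagen of dense connective tissue that also lies on type I fibrils. Its level was 12.43 to 12.60 in vector-4OHT, 12.26 to 12.38 in vector+4OHT and 12.20 to 12.27 in shARID1B+4OHT. The log2 fold change was -0.19 in senescence (SE 0.0575, limma adjusted p = 0.0271) and -0.08 in the knockdown (adjusted p = 0.425). The senescence call was lost without vector-4OHT replicate 1 or 3 or vector+4OHT replicate 1 or 2, at adjusted p of 0.0529 to 0.0976, whereas shARID1B+4OHT stayed below vector-4OHT at -0.27 (limma adjusted p = 0.00449). COL16A1 was called only between shARID1B+4OHT and vector-4OHT (-0.21, limma adjusted p = 0.0073). The other 7 FACIT genes, the 3 type IX chains and COL19A1, COL20A1, COL21A1 and COL22A1, were not called in any comparison, and COL9A1, COL19A1, COL21A1 and COL22A1 were below the median of all values throughout.

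COL15A1 had the largest fall of the 43 genes in OIS. Type XV collagen is a multiplexin that links basement membranes to the fibrils beneath them. COL15A1 read 8.47, 8.34 and 8.64 in vector-4OHT, 6.77, 7.04 and 7.22 in vector+4OHT, and 7.52, 7.54 and 7.56 in shARID1B+4OHT. The groups do not overlap, the senescent arrays were lowest, and the knockdown arrays were nearer to the senescent than to the non-senescent ones. It was 64.0% lower in OIS (log2 fold change -1.47, SE 0.105, limma adjusted p = 1.4e-06) and 1.44-fold higher in the knockdown than in senescent cells (0.53, limma adjusted p = 0.00643). It remained 48.0% below non-senescent cells (limma adjusted p = 4.13e-05). The lowest senescent array, at 6.77, is near the median of all values. Its upstream window at chr9:98943657-98943906, plus strand, is shown for the gene that fell furthest, with GGGCGG in capitals.
COL15A1: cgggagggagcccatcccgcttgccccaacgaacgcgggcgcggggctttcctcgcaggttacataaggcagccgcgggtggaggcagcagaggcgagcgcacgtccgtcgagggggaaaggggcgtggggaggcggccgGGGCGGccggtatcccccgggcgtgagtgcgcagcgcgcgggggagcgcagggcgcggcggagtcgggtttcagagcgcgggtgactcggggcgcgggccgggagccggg

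The window holds 1 GGGCGG, no match to the other 3 motifs, and 76.8% of its bases are G or C. COL18A1, the other multiplexin and the source of endostatin, differed by -0.03 in senescence (95% interval -0.16 to 0.11) and by 0.08 in the knockdown (95% interval -0.05 to 0.22), so a change of the size seen in COL15A1 lay outside its intervals.

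COL7A1, the anchoring fibril collagen, was called in both comparisons. It read 7.34, 7.39 and 7.32 in vector-4OHT, 7.79, 7.52 and 7.57 in vector+4OHT, and 7.36, 7.20 and 7.27 in shARID1B+4OHT. The senescent arrays were above both other groups, and those overlapped. The log2 fold change was 0.28 in senescence (SE 0.0734, limma adjusted p = 0.0132) and -0.35 in the knockdown (limma adjusted p = 0.00876), and shARID1B+4OHT differed from vector-4OHT by -0.07 (95% interval -0.23 to 0.09).

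Among the 3 membrane collagens measured, COL13A1, a collagen of cell adhesion sites and the neuromuscular junction, was called. It rose by 0.31 in senescence (limma adjusted p = 0.00452), from 7.37 to 7.56 in vector-4OHT to 7.65 to 7.85 in vector+4OHT, and differed by -0.09 in the knockdown (adjusted p = 0.444). COL23A1 and COL25A1 were not called. Of type VI collagen, COL6A1 differed by -0.12 in senescence (95% interval -0.25 to 0.01), COL6A2 by 0.03 (-0.11 to 0.18) and COL6A3 by 0.13 (0.01 to 0.26, adjusted p = 0.106), and none of these 3 was called in any comparison. COL6A5 and COL6A6 were below the median of all values. COL26A1 and COL28A1, which belong to no larger class, were not called.

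**Figure D3:**
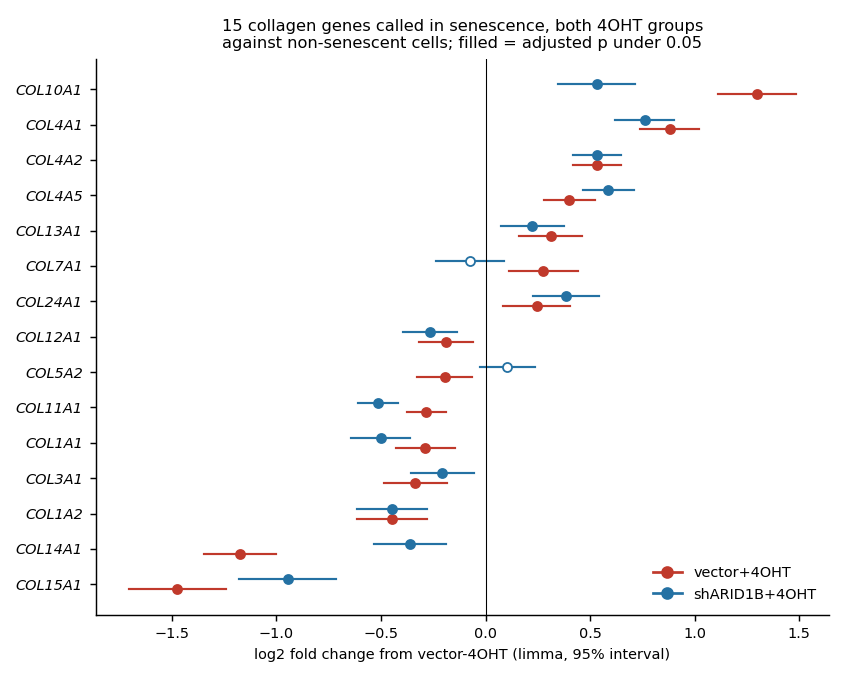
Log2 fold change against vector-4OHT (x axis) of the 15 collagen genes called in senescence (y axis), for vector+4OHT and for shARID1B+4OHT, with 95% intervals from limma. The groups share their vector-4OHT arrays. COL14A1 is at -1.17 and -0.36, COL10A1 at 1.30 and 0.53, and COL15A1 at -1.47 and -0.94, whereas COL4A2 is at 0.53 in both.

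Set against non-senescent cells, the knockdown cells with 4OHT had 17 called collagen genes. Beside COL4A1, COL4A2, COL8A1, COL10A1, COL11A1, COL12A1, COL14A1, COL15A1 and COL16A1, with the values above, they held COL1A2 at -0.45 (limma adjusted p = 0.000865). COL1A1 stood at -0.50 (limma adjusted p = 0.000124) and COL4A5 at 0.59 (limma adjusted p = 1.24e-05), both farther from non-senescent cells than in vector+4OHT, where they were at -0.29 and 0.40. COL3A1 was at -0.21 (limma adjusted p = 0.0392), a call that was lost without vector-4OHT replicate 3, vector+4OHT replicate 3 or any single shARID1B+4OHT array, at adjusted p of 0.0511 to 0.13. COL13A1 was at 0.22 (limma adjusted p = 0.0289), a call that was lost without vector-4OHT replicate 1 or 2 or any single shARID1B+4OHT array, at adjusted p of 0.0577 to 0.102. The other 3 were dim. COL4A6 was at 0.35 as above, COL24A1 was at 0.39 (limma adjusted p = 0.00163), and COL6A6 was at -0.15 (limma adjusted p = 0.0499), a call lost without vector-4OHT or vector+4OHT replicate 2 or 3 or shARID1B+4OHT replicate 1 or 2, at 0.0601 to 0.153. For COL23A1, which was not called, the adjusted p fell to 0.033 without vector+4OHT replicate 1.

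Collagen chains are hydroxylated and folded in the endoplasmic reticulum, trimmed at both ends after secretion and then crosslinked by lysyl oxidases. Of 36 measured genes for these steps, 14 were called higher and 8 lower in senescence, 61.1% in all beside 32.6% of all genes and 44.5% of genes with every group mean at or above the median of all values, where 32 of the 36 lay by their mean, with a median log2 fold change of 0.0335. In the knockdown 6 were called higher and 7 lower, 36.1% beside 15.7% of all genes and 22% of those brighter ones, with a median of -0.0119. In senescence ADAMTS3, a protease that removes procollagen N-propeptides, rose 2.31-fold (log2 fold change 1.21, SE 0.084, limma adjusted p = 1.19e-06). P4HA2, a prolyl hydroxylase subunit, rose by 0.67 (limma adjusted p = 1.62e-06), and PLOD2, the lysyl hydroxylase of telopeptides, rose by 0.76 (limma adjusted p = 2.06e-06). LOXL1, a lysyl oxidase of elastic fibers, fell by 0.67 (limma adjusted p = 7.13e-06).

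In the knockdown PLOD2 fell by 0.37 (limma adjusted p = 0.00152) from its senescent level, whereas ADAMTS3 rose by a further 0.54 (limma adjusted p = 0.00156). LOX, the main lysyl oxidase of fibrillar collagen, had a mean of 12.64 ± 0.051 in vector-4OHT, 12.21 ± 0.023 in vector+4OHT and 11.67 ± 0.052 in shARID1B+4OHT (SD, n = 3), with the groups apart from each other. It fell by 0.54 in the knockdown (limma adjusted p = 6.22e-05), and LOXL3, another lysyl oxidase, rose by 0.40 (limma adjusted p = 0.000547). Between shARID1B+4OHT and vector-4OHT, 24 of the 36 (66.7%) were called, 16 higher and 8 lower, beside 31.5% of all genes. ADAMTS3 was at 1.75 (limma adjusted p = 6.43e-08), LOX at -0.97 (limma adjusted p = 1.08e-07), LOXL1 at -0.69 (limma adjusted p = 6.33e-06) and P4HA3, a prolyl hydroxylase subunit, at 0.47 (limma adjusted p = 5.68e-05).

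**Figure D4:**
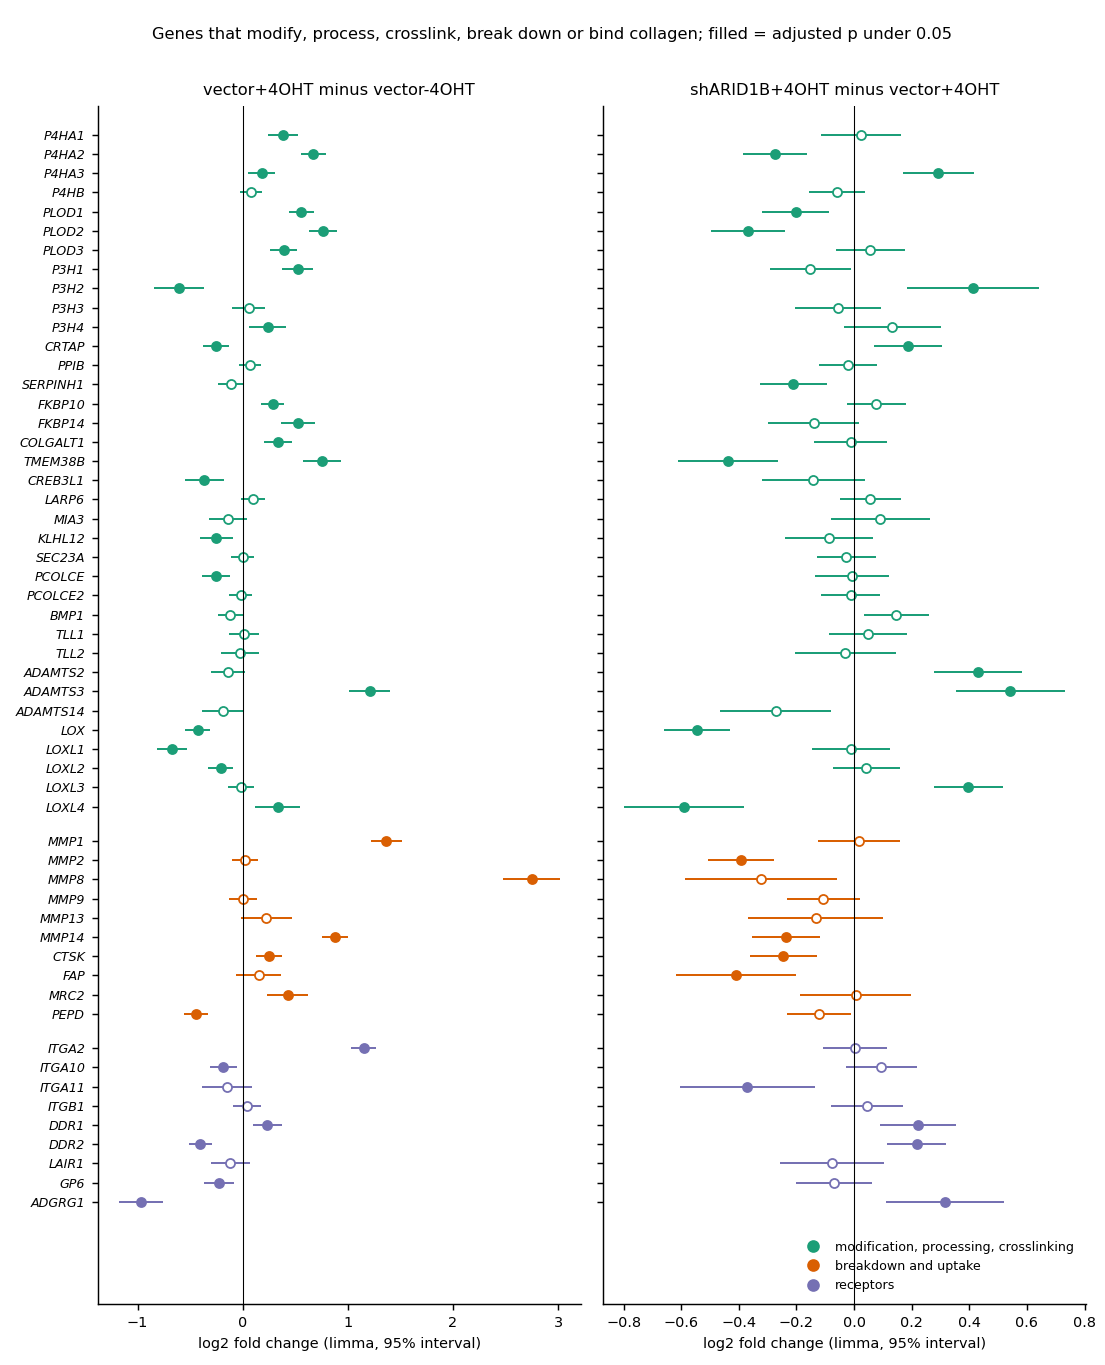
Log2 fold change (x axis) of 55 genes of collagen folding, processing and crosslinking, of collagen breakdown and uptake, and of collagen receptors (y axis), in senescence and in the knockdown, with filled points for limma adjusted p under 0.05. MMP1 (1.36), ADAMTS3 (1.21) and ITGA2 (1.15) lie to the right in senescence, as does MMP8 (2.75), whose vector-4OHT signal is below the median of all values, and ADGRG1 (-0.97) farthest to the left.

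Among 10 genes of collagen breakdown and uptake, 5 were called higher and 1 lower in senescence, beside 14.9% and 17.6% of all genes. MMP1, the interstitial collagenase, rose 2.58-fold (log2 fold change 1.36, SE 0.0628, limma adjusted p = 5.43e-08), and MMP14, the membrane collagenase, rose 1.84-fold (0.88, limma adjusted p = 3.33e-07). MMP8, the neutrophil collagenase, rose by 2.75 (limma adjusted p = 3.02e-08) from a mean of 4.98, below the median of all values, so that the size of its rise is poorly determined. PEPD, which splits proline dipeptides left by collagen breakdown, fell by 0.44 (limma adjusted p = 3.67e-05). In the knockdown 4 were called lower and 0 higher, beside 6.09% and 9.63% of all genes. They were MMP2, a gelatinase (-0.39, limma adjusted p = 0.000481), CTSK, the collagenolytic cathepsin K (-0.25, limma adjusted p = 0.00838), MMP14 (-0.24, limma adjusted p = 0.0104) and FAP, fibroblast activation protein (-0.41, limma adjusted p = 0.0124), whose call was lost without shARID1B+4OHT replicate 1 (0.0519). MMP1 differed by 0.02 in the knockdown (95% interval -0.12 to 0.16), and MMP8 by -0.32 (adjusted p = 0.0949, or 0.0129 without vector+4OHT replicate 1). Against vector-4OHT the hairpin cells stood at 1.38 for MMP1, 2.42 for MMP8, 0.64 for MMP14 and -0.57 for PEPD, all called.

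Among 9 collagen receptor genes, 2 were called higher and 4 lower in senescence, beside 14.9% and 17.6% of all genes. In the knockdown 3 were called higher and 1 lower, beside 9.63% and 6.09%, or 3 and 0 with array medians subtracted. ITGA2, the collagen-binding integrin α2 subunit, rose 2.22-fold (log2 fold change 1.15, SE 0.0491, limma adjusted p = 2.98e-08) and differed by 0.0028 in the knockdown (95% interval -0.11 to 0.11). The receptor tyrosine kinases for collagen moved apart in OIS, as DDR1 rose by 0.23 (limma adjusted p = 0.00968) and DDR2, the form typical of fibroblasts, fell by 0.40 (limma adjusted p = 4.02e-05). ADGRG1, a receptor for type III collagen, fell by 0.97 in OIS (limma adjusted p = 1.18e-05).

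In the knockdown DDR2 rose by 0.22 (limma adjusted p = 0.00782). The other 3 receptor calls lay near the threshold and were lost when any 1 of several arrays was left out. DDR1 rose by 0.22 (limma adjusted p = 0.0262), or 0.0529 to 0.0939 without vector+4OHT replicate 1 or any single shARID1B+4OHT array. ITGA11, the integrin subunit for type I collagen, fell by 0.37 (limma adjusted p = 0.035), or 0.0502 to 0.129 without vector-4OHT replicate 2, vector+4OHT replicate 1 or 2 or any single shARID1B+4OHT array. ADGRG1 rose by 0.31 (limma adjusted p = 0.0403), or 0.0569 to 0.108 when any 1 array but vector+4OHT replicate 1 was left out. Against vector-4OHT, the receptor genes with the smallest p-values were ITGA2 at 1.15, DDR1 at 0.46, ADGRG1 at -0.65 and GP6, a platelet collagen receptor, at -0.30, all called.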

How the data were processed

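Total RNA of 9 IMR90 ER:RAS samples was hybridised to Affymetrix whole-transcript arrays, although the labels' extraction text names an Illumina kit. The authors deposited 1 log2 value per probe set and array (33297 probe sets). In the submitters' processing notes stand RMA, a method that corrects background, equalises array distributions and summarises probes, and oligo and limma; versions and genome build are not given in the sources used here. After this normalisation a shift of all transcripts together cannot be seen. Levels of different probe sets were not compared.

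Probe sets with exactly 1 symbol were kept (1754 had several and 12083 none), and the one with the highest mean stood for its gene; COL11A2 had 3. Groups came from the labels. Differences were fitted with limma 3.58.1 (R 4.3.3) on all 9 arrays with group as the sole term, and the code was tested on simulated data. Alternatives were another scaling, handling of probe sets, spread estimate or set of arrays, a replicate block and the methods' t-test.

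The members, classes and gene lists were chosen with earlier results of these data known. Array values were given for COL1A1, COL1A2, COL3A1 and members called with a log2 fold change of 0.5 or more in either direction in senescence or knockdown; COL4A5, COL5A2, COL7A1, COL11A1, COL12A1 and COL13A1 were added after their values were seen. Of each partner list, up to 4 called genes per comparison with the smallest p were named; COLGALT2 and ITGA1 were not analysed here. Promoter windows (RefSeq, GRCh38.p14) matched 31 of 43 genes by symbol.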

Additional observations from a re-analysis of the deposited data

How the results depend on the processing

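No collagen or partner gene that was called changed direction under any alternative run. Of the called collagen genes, 8 of 15 in senescence (COL1A2, COL4A1, COL4A2, COL4A5, COL10A1, COL11A1, COL14A1 and COL15A1), 3 of 8 in the knockdown (COL10A1, COL11A1 and COL14A1) and 11 of 17 between shARID1B+4OHT and vector-4OHT kept their call under every alternative that gave them a value. The methods' t-test with Benjamini-Hochberg adjustment, which estimates each gene's spread from the compared arrays alone, called fewer: 9 collagen genes in senescence and 4 in the knockdown, 8 processing genes and 1 receptor gene in the knockdown, and 3737 and 1446 of all genes; under it alone COL1A1, COL3A1, COL7A1 and COL13A1 in senescence and COL5A2, COL7A1 and COL15A1 in the knockdown lost their call. Unadjusted, it gave 16 and 12 collagen genes. With 1 array left out, 13 to 16 collagen genes were called in senescence, 6 to 8 in the knockdown and 14 to 18 between shARID1B+4OHT and vector-4OHT. In the knockdown 1 to 3 receptor genes were called with 1 array left out, and of all genes 1801 to 2817, the lowest without shARID1B+4OHT replicate 2. Array medians differed by -0.035, -0.0255 and -0.0605 in the 3 comparisons, and subtracting them gave 9 collagen genes higher and 6 lower in senescence against 7 and 8, and 8 and 6 between shARID1B+4OHT and vector-4OHT against 8 and 9; over all genes it gave 3026 and 2658 against 2747 and 3249 in senescence, 1799 and 760 against 1773 and 1122 in the knockdown, and 3452 and 2087 against 2867 and 2933 between shARID1B+4OHT and vector-4OHT. COL8A1 (adjusted p = 0.0468) and COL27A1 (0.035) were then called higher in senescence, and COL5A2 and COL12A1 were not called. In the knockdown, subtracting medians gave 3 collagen genes higher and 3 lower against 4 and 4. There COL1A1 (limma adjusted p = 0.119) and COL4A5 (0.0598) lost their call under this scaling. It gave 3 receptor genes higher and 0 lower in the knockdown against 3 and 1. Replicate numbers are shared across groups, but same-numbered arrays did not deviate together (r -0.26 to 0.32 over 9 pairs, 1 of them over 0.1; 2 of 9 arrays correlated best with their own number). With the replicate number as a block, 15, 6 and 15 collagen genes were called in the 3 comparisons, and COL1A1 (0.0632) and COL4A5 (0.0755) lost their call in the knockdown. The other alternatives kept each count within 1.5 times; with dim genes left out, 12 of the 43 collagen genes gave no value, and 16, 8 and 14 of the other 31 were called in senescence, the knockdown and against vector-4OHT. With 3 arrays a group, signals below the median of all values limit what can be said of 12 collagen genes.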
